A study of Mus musculus with 18 samples.

Results

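Solute carriers are membrane proteins that move nutrients, ions, metals, vitamins and metabolites across the cell surface or across the membranes of mitochondria, lysosomes and the Golgi. They were followed here in RNA sequencing counts of primary mouse microglia. The members were the protein-coding genes named Slc, a family number, the letter a and a member number, with a mean of at least 5 CPM, the counts of a gene scaled to a common library total, over all 18 libraries. This gave 131 of the 54532 genes in the table, in 38 families. Of 334 genes with such a name, 143 reached the level and 191 did not. A further 13 genes, 12 of them above the level, were set aside by name in the rule. They were Slc2a1, Slc2a3, Slc16a3, Slc3a2, Slc7a2, Slc7a5, Slc7a11, Slc1a4, Slc1a5, Slc38a2, Slc13a3, Slc40a1 and Slc11a1. The members were therefore selected on measured levels, and their abundance is a description. Just inside the limit lay Slc39a8 (5.17 CPM), Slc39a7 (5.34 CPM) and Slc6a4 (5.67 CPM), and just outside lay Slc45a3 (4.67 CPM), Slc22a4 (4.65 CPM) and Slc25a43 (4.56 CPM). For Slc6a4 and Slc39a8 the mean over the other 5 groups, without the group of their highest level, was under 5 CPM. Members under 5 CPM in all groups without tau, or in all with tau, passed only through the other groups. Their tau changes are therefore part of how they were chosen. All 131 members also passed the count filter of the test across genes.

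Facilitative carriers let a solute run down its gradient, whereas coupled carriers use a sodium, proton or chloride gradient to concentrate it. Microglia, the resident macrophages of the brain, take up glucose, amino acids, lactate and nucleosides through such proteins, and their lysosomes export digested material through others. The SLC25 family sits in the inner mitochondrial membrane and links the cytosol to the metabolism of the organelle. The family number gives related sequences and often, but not always, the kind of solute.

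The microglia were taken from pups at postnatal day 0 to 3 and isolated after 10 days of mixed culture. The first genotype is labelled mTrem2 +/+ (Trem2+/+ below). The second is labelled hTrem2 R47H/+ (R47H/+ below) and carries the R47H form of TREM2, a lipid-sensing receptor of microglia, on 1 allele. Trem2+/+ cells were cultured without tau or with 0N4R tau fibrils at 1 ug per ml, after 6 h with 0.01% DMSO. R47H/+ cells had the same states, and further R47H/+ cells were given 1 uM MK-2206, which blocks Akt kinases, for 6 h before the step without or with tau. No DMSO share is given for the MK-2206 groups, and there was no Trem2+/+ group with MK-2206. Each of the 6 groups had 3 libraries. Whether the 3 libraries of a group came from different animals or cultures is not given, and the p-values speak only of the spread among these libraries, which may be technical.

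Library totals lay between 16288531 and 20686299 counts, and the members took between 0.697% and 1.09% of them. A pair of libraries, Trem2+/+ replicate 3 and replicate 2 of R47H/+ with tau, had low values for long genes and high values for short ones beside their group partners. Their log2 CPM changed by -1.39 and -0.73 for each 10-fold step in gene length. Among the members, the 42 longer than 6000 bp lay at a median log2 difference of -0.48 from the mean of the group partners in the first of these libraries and -0.35 in the second. The 21 shorter than 3000 bp lay at 0.33 and 0.30. Counts of members called per comparison are therefore given with and without both libraries, the latter beside the share of all 13498 genes tested there. Trem2 lay between 934 and 1893 CPM in Trem2+/+ cells without tau and between 451 and 489 CPM in R47H/+ cells without tau. Csf1r, a marker of microglia, lay between 1911 and 2690 CPM in the group means, but Tmem119 lay between 0.641 and 1.57 CPM. Of the astrocyte markers, Gfap was at most 1.09 CPM in any group mean, but the list summed to 53.5 to 105 CPM per library. The vessel marker Cldn5 and the granulocyte marker S100a9 were at 0, but their lists summed to 5.33 to 103 and 393 to 561 CPM. Of the microglia markers, Cx3cr1, P2ry12 and Fcrls were higher in R47H/+ than in Trem2+/+ cells without tau (log2 changes of 0.84, 1.43 and 1.16) and lower with MK-2206 (-2.11, -0.98 and -1.22). With tau, P2ry12 and Aif1 were higher in all 3 settings and Fcrls was lower in Trem2+/+ and in R47H/+ cells. Of 8 astrocyte markers, 5 of them tested, 1 was higher and 3 were lower in R47H/+ than in Trem2+/+ cells without tau. The shares of all genes there were 8.22% and 6.83%. Of 8 oligodendrocyte lineage markers, 1 was higher and 3 were lower with tau in Trem2+/+ cells, and 1 and 4 in R47H/+ cells. Of 8 markers of border macrophages, monocytes and granulocytes, 5 were tested. With tau 3 were higher and 1 was lower in Trem2+/+ cells, and 2 and 2 in R47H/+ cells. The tau shares of all genes were 14.4% higher and 12.1% lower in Trem2+/+ cells, and 15.0% and 12.6% in R47H/+ cells. Ly6c2 rose to a mean of 177 CPM in R47H/+ cells with tau and Mrc1 fell in both genotypes. The vessel marker Kdr was the only called member of its list, of which 3 were tested, and was higher with tau in each of the 3 settings. The part of other cells in the results was not tested, and in bulk RNA fewer cells of a type and less RNA per cell cannot be told apart.

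Levels per length were compared as CPM per kilobase of exon. The median member lay at 6.66 CPM per kilobase, and the 5 most abundant members made up 28.1% of the summed level per length. They were Slc25a5, a mitochondrial exchanger of ADP and ATP, at 199 CPM per kilobase, Slc31a2, a copper carrier, at 126, Slc6a6, the taurine carrier, at 111, Slc15a3, a peptide and histidine carrier of endosomes and lysosomes, at 101, and Slc25a3, the mitochondrial phosphate carrier, at 85.3. The level of Slc6a6 in Trem2+/+ cells without tau was 1218, 1064 and 259 CPM, and that of Slc25a5 was 268, 283 and 578 CPM. These pairs of values show the length shift of replicate 3 in a long and a short member. Slc6a6 lay at 1005, 1052 and 1028 CPM in R47H/+ cells without tau, where the replicates did not spread in this way.

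Over the 6 groups, 78 of 131 members (59.5%) differed (F-test of edgeR's quasi-likelihood model, p-values adjusted by Benjamini-Hochberg over 13267 genes, threshold 0.05), against 42.5% of all genes tested. Leaving out the length-shifted pair of libraries gave 107 members (81.7%), against 67.0% of all genes. The highest group mean was over 2 times the lowest for 39 members and over 4 times the lowest for 12, with a median ratio of 1.56. By substrate class, 14 of 20 amino acid family members differed, 12 of 19 metal carriers, 16 of 30 mitochondrial carriers, 8 of 16 ion and pH carriers, 8 of 11 members of the sugar carrier families, which include the inositol carrier Slc5a3 and the vitamin carrier Slc5a6, and 3 of 8 carriers of nucleosides and nucleotide sugars. The remaining classes had 1 to 7 members each, of which 17 of 27 differed. The map of all members shows these differences library by library.

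**Figure D1:**
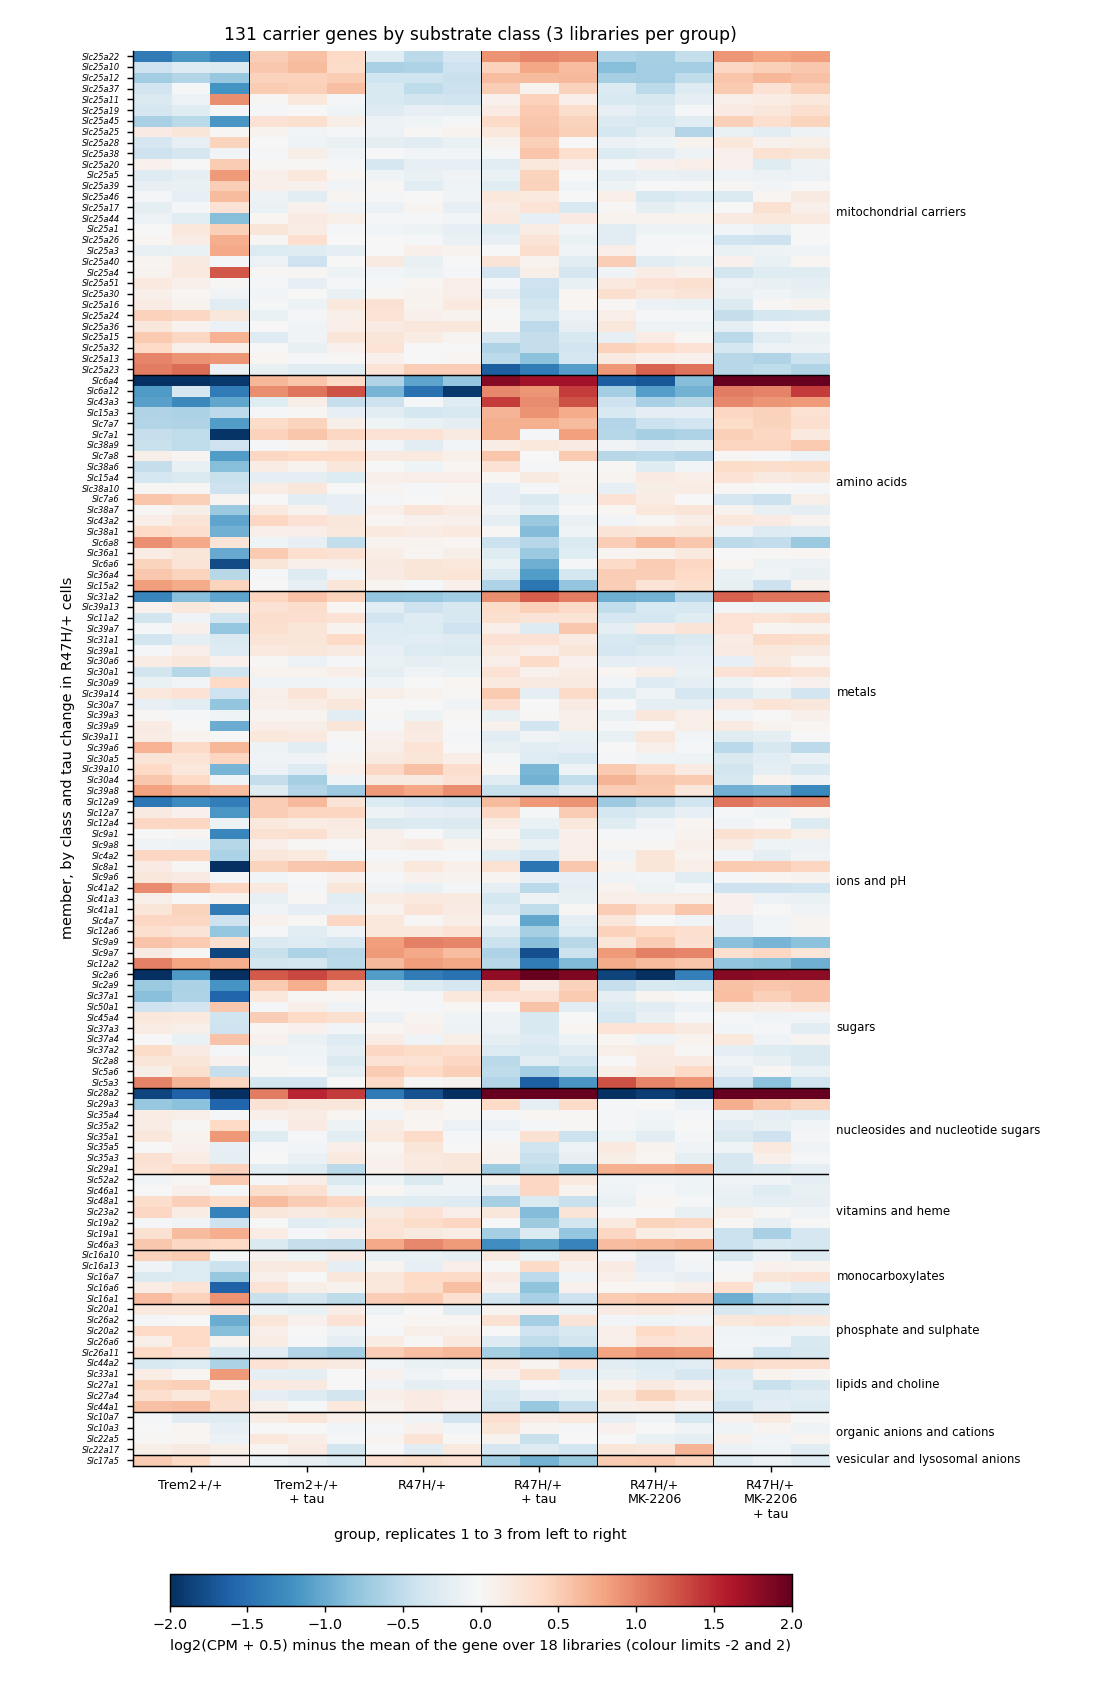
Each row is 1 of the 131 members and each column 1 of the 18 libraries, and the colour gives log2(CPM + 0.5) minus the mean of the gene over all libraries, with colours limited at -2 and 2. Members are ordered by class and by the tau change in R47H/+ cells, and Slc28a2, Slc2a6, Slc6a4 and Slc6a12 are the reddest rows of the tau groups, while Trem2+/+ replicate 3 departs from replicates 1 and 2 in many rows.

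Tau fibrils were followed by changes of carriers in both directions. In Trem2+/+ cells 52 of 131 members were called, 27 higher (20.6%) and 25 lower (19.1%), against 14.4% of all genes higher and 12.1% lower. In R47H/+ cells 58 were called, 26 higher (19.8%) and 32 lower (24.4%), against 15.0% and 12.6% of all genes. In R47H/+ cells with MK-2206, 53 were called, 27 higher (20.6%) and 26 lower (19.8%), against 14.3% and 11.3%. Without both length-shifted libraries 77 were called in Trem2+/+ cells, 28.2% higher and 30.5% lower, against 21.6% and 19.8% of all genes. In R47H/+ cells 84 were called, 30.5% higher and 33.6% lower, against 21.6% and 21.1%, and with MK-2206 81, 28.2% and 33.6%, against 22.7% and 25.3%. Of these, 51, 57 and 53 were shared with the full set. The median log2 change of the members was -0.02, -0.06 and -0.05 in the 3 settings, against -0.04, -6.13e-05 and -0.03 over all genes tested. A fit of the Trem2+/+ groups alone called 25 members, and a fit of the MK-2206 groups alone called 80. No share of all genes is given for these fits, so they tell nothing particular to the members.

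**Figure D2:**
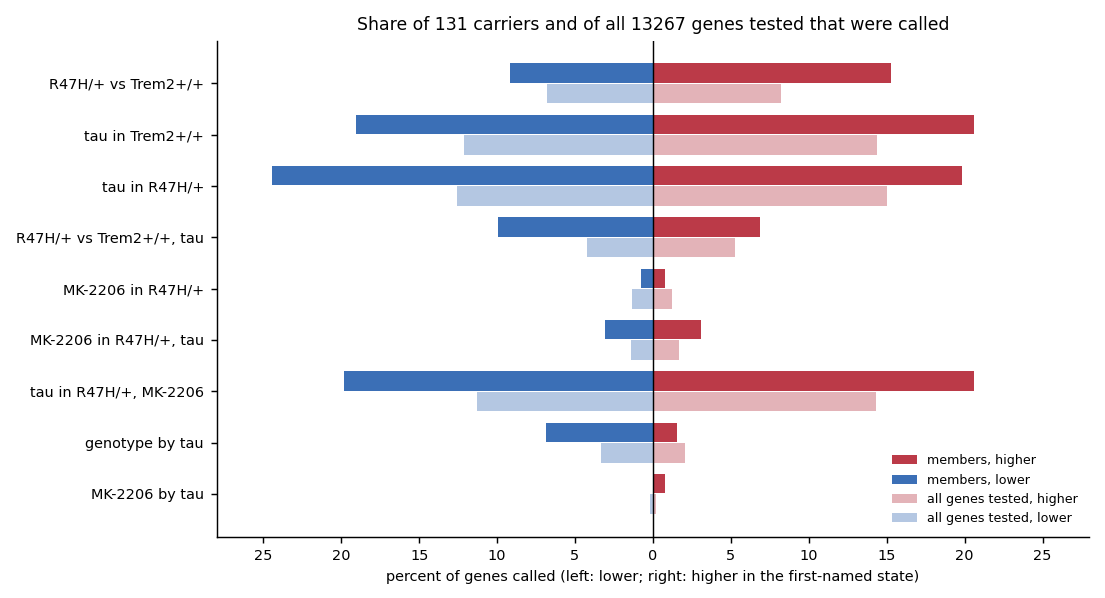
Bars give the percent of the 131 members (dark) and of all 13267 genes tested (pale) called higher (right) or lower (left) in 7 pairwise comparisons and 2 interactions, where for an interaction higher means a more positive tau response in R47H/+ or MK-2206 cells. The 3 tau comparisons have the longest bars, with 19.1% to 24.4% of members on each side, and the bars for MK-2206 at matched tau state reach at most 3.05%.

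The 3 tau comparisons share no library, and 38 members (29.0%) were called in all of them, 20 higher and 18 lower, against 13.9% of all genes tested. The fit without the length-shifted pair gave 59 (45.0%), against 27.3%. The 20 were Slc28a2, Slc2a6, Slc6a4, Slc6a12, Slc31a2, Slc12a9, Slc25a22, Slc25a10, Slc25a12, Slc43a3, Slc7a7, Slc25a37, Slc2a9, Slc25a45, Slc15a3, Slc44a2, Slc31a1, Slc11a2, Slc38a9 and Slc30a1. The 18 were Slc46a3, Slc12a2, Slc25a23, Slc9a9, Slc5a3, Slc39a8, Slc16a1, Slc26a11, Slc25a13, Slc29a1, Slc6a8, Slc17a5, Slc30a4, Slc19a1, Slc39a6, Slc44a1, Slc27a4 and Slc37a2. Between the genotypes alone, 42 members were called with tau in both, which is 42 of 52 and 42 of 58, and 41 of these moved in the same direction. This is 32.1% of the members, against 15.3% of all genes, and 49.6% against 29.8% with the length-shifted pair left out. The exception was Slc16a7, a monocarboxylate carrier, with a log2 change of 0.54 in Trem2+/+ and -0.46 in R47H/+ cells.

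Slc28a2 (chr2:122426477-122461137, GRCm38, plus strand) encodes a sodium-coupled carrier that concentrates purine nucleosides and uridine. It lay at 0.675, 0.870 and 0.472 CPM in Trem2+/+ cells and at 8.13, 11.6 and 10.7 CPM with tau. In R47H/+ cells the values were 1.08, 0.760 and 0.335 CPM without and 23.0, 21.5 and 23.6 CPM with tau, and with MK-2206 they were 0.456, 0.648 and 0.363 and 16.4, 16.9 and 16.4 CPM. Every tau library was above every library without tau. Slc28a2 lay at most at 1.08 CPM without tau and entered the members only through its levels with tau. Its rise is therefore part of how it was chosen. The log2 changes were 3.86 (SE 0.275, adjusted p = 2.13e-08), 4.94 (SE 0.276, adjusted p = 3.48e-09) and 5.07 (SE 0.289, adjusted p = 3.59e-09). In contrast Slc29a1, an equilibrative carrier that lets nucleosides run down their gradient, fell with tau in the same 3 settings, by 0.71, 0.84 and 1.00 on the log2 scale.

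Slc2a6 (chr2:27021363-27027998, minus strand) encodes GLUT6, a hexose carrier found on internal membranes. It lay at 22.6, 41.2 and 16.7 CPM in Trem2+/+ cells and at 214, 233 and 208 CPM with tau, a log2 change of 3.02 (SE 0.257, adjusted p = 1.75e-07). R47H/+ cells held 42.2, 34.5 and 32.2 CPM without and 314, 364 and 337 CPM with tau, a log2 change of 3.22 (adjusted p = 1.3e-07). The lowest tau library was several times the highest library without tau. Another member of the same family, Slc2a9, a carrier of urate and hexoses, rose by 1.41, 0.63 and 0.96 on the log2 scale in Trem2+/+, R47H/+ and MK-2206 cells. Slc2a8, also a hexose facilitator of internal membranes, fell in R47H/+ cells (log2 change -0.71, adjusted p = 0.000250) and was not called in Trem2+/+ cells. Of 11 sugar family members, 3 were called higher and 2 lower with tau in Trem2+/+ cells (4 and 3 without both length-shifted libraries), and 2 higher and 4 lower in R47H/+ cells (3 and 4). Among all genes it was 14.4% and 12.1% in Trem2+/+ cells (21.6% and 19.8%), and 15.0% and 12.6% in R47H/+ cells (21.6% and 21.1%).

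The amino acid families had 8 members higher and 3 lower of 20 with tau in Trem2+/+ cells, 6 higher and 3 lower in R47H/+ cells, and 8 higher and 1 lower with MK-2206. Leaving out the length-shifted pair gave 9 and 6, 8 and 7, and 9 and 7, so the excess of higher members was much smaller. All genes tested gave 14.4% higher and 12.1% lower, 15.0% and 12.6%, and 14.3% and 11.3%. With the pair left out they gave 21.6% and 19.8%, 21.6% and 21.1%, and 22.7% and 25.3%. The members with the largest rise do not carry the common amino acids. Slc6a4 (chr11:76998603-77032340, plus strand) encodes the serotonin carrier SERT. It lay at 0.156, 0.366 and 0.472 CPM in Trem2+/+ cells and 5.35, 4.93 and 4.31 CPM with tau, and at 1.95, 1.29 and 1.67 CPM in R47H/+ cells and 12.6, 11.4 and 11.4 CPM with tau. The highest values, 14.8, 15.9 and 16.6 CPM, were in R47H/+ cells with MK-2206 and tau. The log2 changes with tau were 3.88 (SE 0.328), 2.83 (SE 0.259) and 4.02 (SE 0.276), with adjusted p-values of 1.62e-07, 5.21e-07 and 2.29e-08. Slc6a4 lay far under 5 CPM in every group without tau and entered the members only through its levels with tau. Its rise with tau is therefore part of how it was chosen, most of all with MK-2206. The Trem2+/+ values without tau rest on few counts, which limits the precision of that change. Even at its highest, Slc6a4 remained a low-level transcript beside Slc6a6 of the same family.

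Slc6a12 encodes a carrier of betaine and GABA. Its values were 4.72, 8.52 and 3.84 CPM in Trem2+/+ cells and 21.2, 23.4 and 27.2 CPM with tau, and 5.50, 3.56 and 2.51 and 21.8, 20.6 and 29.7 CPM in R47H/+ cells. The 9 libraries with tau lay between 20.6 and 29.7 CPM and did not overlap with the 9 without, and the 3 tau groups had means of 24.0, 24.0 and 24.9 CPM. The log2 changes were 2.06, 2.63 and 2.15 (adjusted p = 4.51e-05, 5.29e-06 and 2.73e-05). Of its 5 RefSeq start windows, only the most upstream held a match to the kappa B motif, the site bound by NF-kappa B factors. The window with the match is the one printed, so it is a picked example. The windows of Slc28a2, Slc2a6 and Slc6a4, which rose more, held no such match. A link of the match with the rise was not tested. The printed window spans chr6:121342324-121342573 (plus strand, GRCm38.p6), the 250 bases before the most upstream start, with the match in capitals.
Slc6a12: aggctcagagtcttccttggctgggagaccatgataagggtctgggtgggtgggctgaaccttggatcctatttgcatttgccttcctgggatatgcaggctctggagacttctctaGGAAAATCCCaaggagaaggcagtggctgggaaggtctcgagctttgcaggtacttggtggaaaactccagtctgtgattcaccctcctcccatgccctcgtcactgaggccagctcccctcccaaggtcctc

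Slc43a3, whose family carries neutral amino acids but which is known as a purine nucleobase carrier, rose by 1.11, 1.53 and 1.55 on the log2 scale. Its group means without tau lay under 5 CPM, so these rises are part of how it was chosen. Slc15a3 rose by 0.52, 1.07 and 0.63, from 427 ± 17.4 to 899 ± 69.9 CPM in R47H/+ cells (SD, n = 3 each). Of its exonic bases, 28.1% overlap Tmem132a on the opposite strand, and whether the authors' counting used strand is not given in the sources used here. Slc7a7, a light chain of the exchanger for cationic and neutral amino acids, rose by 1.08, 0.83 and 0.86, and Slc38a9, the lysosomal arginine sensor of the mTORC1 pathway, by 0.52, 0.28 and 0.59. Slc6a8, the creatine carrier, fell by 0.91, 0.48 and 1.15. Thus the family numbers named for amino acids held both directions.

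Of 30 mitochondrial carriers, 6 were higher and 4 lower with tau in Trem2+/+ cells, 7 higher and 5 lower in R47H/+ cells, and 7 higher and 6 lower with MK-2206. Leaving out the length-shifted pair gave 10 and 5, 9 and 7, and 8 and 8. Set beside these are 14.4% and 12.1%, 15.0% and 12.6%, and 14.3% and 11.3% of all genes. Without the pair it is 21.6% and 19.8%, 21.6% and 21.1%, and 22.7% and 25.3%. Slc25a22, a carrier of glutamate, rose from 34.0, 40.8 and 35.5 CPM to 129, 138 and 121 CPM in Trem2+/+ cells and from 77.7, 63.6 and 72.8 CPM to 172, 181 and 176 CPM in R47H/+ cells. No library without tau reached the lowest tau library. The log2 changes were 1.82 (SE 0.106, adjusted p = 2.13e-09), 1.30 (adjusted p = 1.21e-07) and 1.42 with MK-2206 (adjusted p = 4.16e-08). Slc25a10, the dicarboxylate carrier, rose by 0.84, 1.19 and 1.22, and Slc25a37, mitoferrin 1, which brings iron into the matrix, by 1.00, 0.77 and 0.79. Slc25a23, a calcium-regulated exchanger of ATP-magnesium and phosphate, fell by 1.06, 2.06 and 1.74. Its means with tau were 1.67 CPM in R47H/+ cells and 3.30 CPM with MK-2206, under the level for membership. It reached that level mainly through groups without tau, so its falls are part of how it was chosen. In Trem2+/+ cells its call was lost in a fit of these groups alone (adjusted p = 0.115), where replicate 3 held 4.65 CPM beside 10.9 and 11.6.

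A pair of closely related mitochondrial carriers moved in opposite directions. Slc25a12 and Slc25a13 encode aralar and citrin, both of which exchange mitochondrial aspartate for cytosolic glutamate in the malate-aspartate shuttle. Slc25a12 lay at 38.8, 42.0 and 37.2 CPM in Trem2+/+ cells and 86.6, 87.5 and 89.6 CPM with tau, and Slc25a13 at 23.9, 22.4 and 22.3 and 12.2, 11.7 and 12.1 CPM. In R47H/+ cells Slc25a12 lay at 47.6, 47.9 and 46.4 CPM and 96.9, 98.1 and 99.4 CPM with tau, and Slc25a13 at 12.6, 11.9 and 12.2 and 8.09, 6.48 and 9.31 CPM. The ranges without and with tau did not overlap for either gene in any setting. Slc25a12 rose by 1.16, 1.05 and 1.22 on the log2 scale (adjusted p = 3.36e-08, 1.42e-07 and 2.73e-08), and Slc25a13 fell by 0.93, 0.62 and 0.68 (adjusted p = 1.79e-05, 0.00118 and 0.000470). Slc25a12 was higher and Slc25a13 lower also in R47H/+ than in Trem2+/+ cells without tau, by log2 changes of 0.26 and -0.91, a comparison that shares the Trem2+/+ libraries with the tau comparison there. The 250 bases before each start are printed below, chr2:71367756-71368005 for Slc25a12 and chr6:6217174-6217423 for Slc25a13 (both minus strand, GRCm38.p6, RefSeq). Capitals mark the E-box CACGTG, which is absent from the first sequence and begins 125 bases before the start in the second. The GC content is 49.6% and 62.8%. A link of these letters with the tau changes was not tested. The E-box was in 2 of 16 members higher with tau in both genotypes and 6 of 17 lower in both.
Slc25a12: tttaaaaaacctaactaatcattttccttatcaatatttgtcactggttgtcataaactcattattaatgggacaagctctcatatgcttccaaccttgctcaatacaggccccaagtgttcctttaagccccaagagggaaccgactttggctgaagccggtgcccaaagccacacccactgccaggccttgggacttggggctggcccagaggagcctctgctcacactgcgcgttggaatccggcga
Slc25a13: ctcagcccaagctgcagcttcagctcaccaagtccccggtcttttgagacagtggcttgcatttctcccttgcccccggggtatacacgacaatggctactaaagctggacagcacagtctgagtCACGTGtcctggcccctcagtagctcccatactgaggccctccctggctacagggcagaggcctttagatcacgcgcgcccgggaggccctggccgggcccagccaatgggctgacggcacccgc

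**Figure D3:**
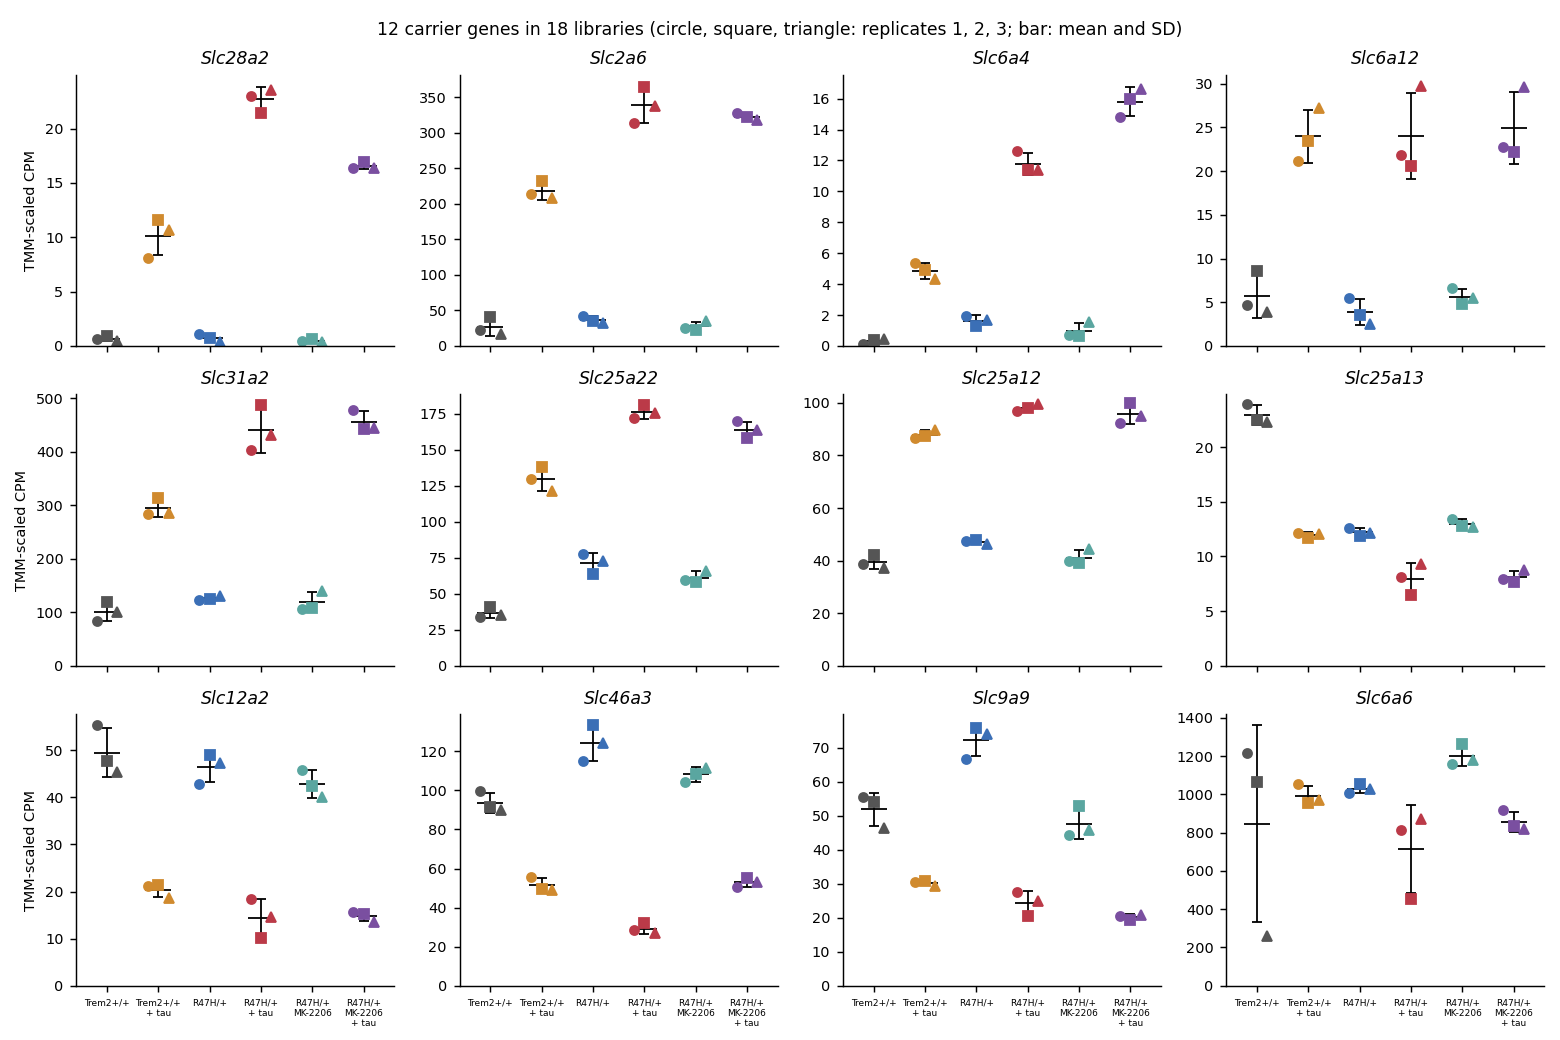
Each panel gives 1 gene, with TMM-scaled CPM on a linear axis from 0, 6 groups on the x axis, 1 symbol per replicate, and a line and bar for the mean and SD of 3 libraries. The tau groups are high for Slc28a2, Slc2a6, Slc6a4, Slc6a12, Slc31a2, Slc25a22 and Slc25a12 and low for Slc25a13, Slc12a2, Slc46a3 and Slc9a9 against the same cells without tau, and Slc6a6 shows the low values of Trem2+/+ replicate 3 (259 CPM) and R47H/+ with tau replicate 2 (451 CPM).

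Of 19 metal carriers, 5 were higher and 4 lower with tau in Trem2+/+ cells, 7 and 4 in R47H/+ cells, and 5 and 3 with MK-2206. With that pair of libraries left out these were 5 and 5, 10 and 6, and 7 and 4. Over all genes, 14.4% were higher and 12.1% lower, 15.0% and 12.6%, and 14.3% and 11.3%. Leaving the pair out made this 21.6% and 19.8%, 21.6% and 21.1%, and 22.7% and 25.3%. The copper carriers rose together. Slc31a2, which acts on copper of endosomes and lysosomes, lay at 84.7, 118 and 101 CPM in Trem2+/+ cells and 283, 314 and 286 CPM with tau, a log2 change of 1.54 (SE 0.133, adjusted p = 2.12e-07). In R47H/+ cells it went from 124, 125 and 131 to 404, 487 and 432 CPM, a log2 change of 1.80 (adjusted p = 6.27e-08). Slc31a1, the importer of copper at the surface, rose by 0.57, 0.49 and 0.62, and Slc11a2, DMT1, a proton-coupled iron importer, by 0.58, 0.60 and 0.60. Among zinc carriers, the exporter Slc30a1 rose by 0.53, 0.31 and 0.29, whereas the importer Slc39a8 fell by 1.34, 1.35 and 1.69 and Slc39a6 by 0.72, 0.32 and 0.50. Slc39a8 reached the level for membership only through its levels without tau, which were highest in R47H/+ cells. Its falls are therefore part of how it was chosen. Slc39a1, another zinc importer, was called higher in R47H/+ cells without and with MK-2206, by 0.44 and 0.46.

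Of 16 ion and pH carriers, 1 was higher and 3 were lower with tau in Trem2+/+ cells, 1 and 5 in R47H/+ cells, and 1 and 3 with MK-2206. The fit without the length-shifted pair gave 4 and 8, 4 and 6, and 4 and 6. Table-wide, 14.4% of genes were higher and 12.1% lower, 15.0% and 12.6%, and 14.3% and 11.3%. In the fit without the pair these shares were 21.6% and 19.8%, 21.6% and 21.1%, and 22.7% and 25.3%. The 1 higher among all libraries was Slc12a9 in each setting, a member of the cation-chloride family, at 55.6, 64.0 and 58.5 CPM in Trem2+/+ cells and 215, 239 and 183 CPM with tau (log2 change 1.84, SE 0.122, adjusted p = 9.33e-09). Slc12a2, NKCC1, which brings sodium, potassium and chloride into the cell, moved the other way. It lay at 55.3, 47.7 and 45.4 CPM in Trem2+/+ cells and 21.1, 21.4 and 18.6 CPM with tau, and it fell by 1.28, 1.70 and 1.53 on the log2 scale (adjusted p = 1.74e-05, 1.14e-06 and 2.64e-06). Slc9a9, an endosomal sodium-proton exchanger, fell by 0.78, 1.56 and 1.24. Slc9a7, an exchanger of the Golgi network, fell by 1.62 in R47H/+ cells, from 28.6, 26.9 and 24.4 CPM to 10.1, 4.30 and 11.5 CPM, and by 1.31 without both length-shifted libraries.

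Several further carriers fell with tau in all 3 settings. Slc16a1, MCT1, a carrier of lactate and pyruvate, lay at 23.9, 21.4 and 29.2 CPM in Trem2+/+ cells and 11.2, 11.8 and 10.8 CPM with tau, and fell by 1.13, 0.95 and 1.29 on the log2 scale (adjusted p = 1.16e-05, 8.1e-05 and 3.02e-06). Slc5a3, the myo-inositol carrier counted with the sugar families, fell by 1.01, 1.39 and 1.70, and Slc26a11, an anion exchanger, by 0.65, 1.42 and 1.12. The mean of Slc5a3 with tau was 2.55 CPM in R47H/+ cells and 3.91 CPM with MK-2206. Slc5a3 reached 5 CPM mainly through other groups, so its falls there are part of how it was chosen. Of the lipid and choline class, Slc44a1, a choline carrier, fell by 0.43, 0.62 and 0.42, and Slc27a4, a fatty acid transport protein, by 0.58, 0.36 and 0.57, while Slc44a2 rose by 0.62, 0.29 and 0.59. Slc19a1, the reduced folate carrier, fell by 0.53, 0.81 and 0.74. Slc17a5, sialin, which exports sialic acid from lysosomes, fell by 0.52, 1.11 and 0.67. Of the organic anion and cation class, no member of 4 was called in Trem2+/+ cells, Slc10a7 was called higher in R47H/+ cells (0.36) and Slc22a17 lower with MK-2206 (-0.56). These named falls were between 0.36 and 1.70 on the log2 scale, smaller than the largest rises.

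Slc46a3 (chr5:147878437-147894815, minus strand), a lysosomal relative of the proton-coupled folate carrier, had the largest called interaction. It lay at 99.6, 91.4 and 89.9 CPM in Trem2+/+ cells and 55.8, 49.5 and 49.0 CPM with tau, and at 115, 134 and 124 CPM in R47H/+ cells and 28.6, 32.2 and 26.8 CPM with tau. With MK-2206 the values were 104, 108 and 112 CPM without and 50.7, 55.3 and 53.1 CPM with tau. R47H/+ cells thus held the highest values without tau and the lowest with tau, and with MK-2206 the tau values lay in the range of Trem2+/+ cells with tau. The log2 changes with tau were -0.86 (SE 0.0988), -2.09 (SE 0.102) and -1.03 (SE 0.0990). The tau response was more negative in R47H/+ than in Trem2+/+ cells by -1.23 (SE 0.140, adjusted p = 5.68e-05, interaction contrast of the edgeR quasi-likelihood test) and less negative with MK-2206 by 1.06 (SE 0.139, adjusted p = 0.00440). Both calls were kept under every alternative that was run. The 250 bases before its start, chr5:147894816-147895065 (minus strand, GRCm38.p6, RefSeq), hold 1 match to TGACNNNGC, the core of the antioxidant response element, in capitals below. A further match lies 20 bases into the transcript and is not shown.
Slc46a3: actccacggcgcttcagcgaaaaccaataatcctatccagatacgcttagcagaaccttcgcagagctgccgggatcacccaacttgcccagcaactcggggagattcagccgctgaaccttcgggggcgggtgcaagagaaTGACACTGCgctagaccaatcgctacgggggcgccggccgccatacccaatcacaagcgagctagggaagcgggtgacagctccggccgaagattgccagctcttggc

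The baseline comparison asks how R47H/+ cells differed from Trem2+/+ cells before tau. Of 131 members, 32 were called, 20 higher (15.3%) and 12 lower (9.16%) in R47H/+ cells, against 8.22% of all genes higher and 6.83% lower. Without both length-shifted libraries 53 were called, 26 higher (19.8%) and 27 lower (20.6%), including all 32, against 15.8% and 13.1% of all genes, so the balance of directions moved. A fit of these 6 libraries alone, which holds Trem2+/+ replicate 3, called 5, and the fit without R47H/+ replicate 3 called 21. By class, 8 amino acid family members were higher and 2 lower of 20, 1 metal carrier was higher and 2 lower of 19, and 3 mitochondrial carriers were higher and 1 lower of 30. With the length-shifted pair left out these were 8 and 6, 2 and 4, and 5 and 4. The median log2 change was 0.01 over the members and -0.02 over all genes tested.

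Slc6a4 had the largest difference, 1.95, 1.29 and 1.67 CPM in R47H/+ against 0.156, 0.366 and 0.472 CPM in Trem2+/+ cells (log2 change 2.32, SE 0.358, adjusted p = 0.000268). These Trem2+/+ values rest on few counts, which limits the precision of the change, and Slc6a4 became a member only through its levels with tau. Slc12a9 was higher in R47H/+ cells by 1.01 (adjusted p = 1.75e-05) and Slc25a22 by 0.96 (adjusted p = 6.39e-06). Slc29a3, a nucleoside carrier of lysosomes, lay at 208, 223 and 205 CPM against 119, 114 and 66.6 CPM (log2 change 1.08, adjusted p = 0.000678). Slc43a3 was higher by 1.05 and Slc37a1, a sugar phosphate exchanger of the endoplasmic reticulum, by 1.06. Slc7a1, a cationic amino acid carrier that imports arginine, lay at 43.4, 43.4 and 40.0 CPM against 25.6, 24.8 and 8.77 CPM, a log2 change of 1.09 that was 0.72 without Trem2+/+ replicate 3. In a fit of the 6 libraries alone the calls of Slc29a3, Slc43a3, Slc37a1 and Slc7a1 were lost, with adjusted p-values of 0.0649, 0.0578, 0.115 and 0.221 (same edgeR test).

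Of the members lower in R47H/+ cells, Slc25a13 had the largest change, 12.6, 11.9 and 12.2 CPM against 23.9, 22.4 and 22.3 CPM (log2 change -0.91, SE 0.119, adjusted p = 5.25e-05). Slc48a1, HRG1, which moves heme out of lysosomes, lay at 136, 135 and 134 CPM against 203, 223 and 207 CPM (log2 change -0.64, adjusted p = 0.000317). Neither gene had overlapping ranges, which was a condition for naming them. Slc41a2, a magnesium carrier, changed by -0.79, Slc15a2, a peptide carrier, by -0.69, Slc6a8 by -0.62 and Slc12a4, a potassium-chloride cotransporter, by -0.55. The last 4 calls were lost in the fit of the 6 libraries alone (adjusted p = 0.0507, 0.0908, 0.135 and 0.145). The call of Slc15a2 was also lost without a count filter (adjusted p = 0.0648) and without Trem2+/+ replicate 1 (0.0663), Trem2+/+ replicate 2 (0.0639), R47H/+ replicate 1 (0.0961), R47H/+ replicate 2 (0.115) or R47H/+ replicate 3 (0.0763).

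With tau in both genotypes, 22 members differed, 9 higher (6.87%) and 13 lower (9.92%) in R47H/+ cells, against 5.25% and 4.24% of all genes. With the length-shifted pair left out 40 differed, 15 higher (11.5%) and 25 lower (19.1%), including all 22, against 11.9% and 11.4% of all genes. Without Trem2+/+ with tau replicate 1 the count was 12, and without replicate 3 of that group it was 13. Slc28a2 was higher by 1.16 (SE 0.214, adjusted p = 0.00239), Slc43a3 by 1.48 (adjusted p = 5.99e-05), Slc6a4 by 1.27 (adjusted p = 0.00239) and Slc15a3 by 0.84 (adjusted p = 3.79e-05). Slc28a2, Slc43a3 and Slc6a4 lay under 5 CPM in every group without tau. Their high levels in R47H/+ cells with tau helped them reach the limit, so their differences here are also part of how they were chosen. Slc31a2 was higher by 0.58, a call lost without Trem2+/+ with tau replicate 1 (adjusted p = 0.0508). Slc25a22 was higher by 0.44, a call lost without a count filter (0.107) and without Trem2+/+ with tau replicate 3 (0.0532). The ranges of the 2 groups did not overlap for any of these 6 genes, which was a condition for naming them.

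Of the members lower in R47H/+ cells with tau, Slc48a1 lay at 101, 131 and 117 CPM against 244, 227 and 212 CPM (log2 change -0.97, SE 0.102, adjusted p = 2.27e-05). Slc25a23 changed by -1.38 (adjusted p = 0.00515), Slc15a2 by -1.07 (adjusted p = 0.00559) and Slc46a3 by -0.82 (adjusted p = 7.99e-05). Slc5a3 changed by -0.97 (adjusted p = 0.0323), a call lost in the fit of these groups alone (0.0797) and without any replicate of Trem2+/+ with tau (0.0627 to 0.118) or replicates 2 or 3 of R47H/+ with tau (0.148 and 0.0976). Slc36a1, a lysosomal proton-coupled amino acid carrier, changed by -0.78 (adjusted p = 0.0398). That call was lost when any 1 of the 6 libraries was left out (0.0598 to 0.171), and without both length-shifted libraries it was -0.63 (adjusted p = 2.17e-06).

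The comparisons between genotypes without and with tau share no library. Of the 32 and 22 members called, 11 (8.40% of the members) were common to both, 10 of them in the same direction, against 4.40% of all genes. With the length-shifted pair left out 24 were common (18.3%), against 13.1%. Higher in both were Slc6a4, Slc43a3, Slc25a22, Slc15a3 and Slc15a4, and lower in both were Slc25a13, Slc48a1, Slc15a2, Slc41a2 and Slc44a1. For Slc6a4 and Slc43a3 the difference with tau is part of how they were chosen. Slc15a4 is an endolysosomal carrier of histidine and peptides, and it was higher in R47H/+ cells by 0.49 without and 0.31 with tau. Slc46a3 was the exception, higher without tau and lower with it.

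The genotype by tau interaction tests whether the tau response itself differed between the genotypes. It called 11 members, 2 with a more positive response in R47H/+ cells (1.53%) and 9 with a more negative one (6.87%), against 2.05% and 3.32% of all genes. Without both length-shifted libraries 30 were called, 12 more positive (9.16%) and 18 more negative (13.7%), including all 11, against 4.54% and 7.39% of all genes, and without Trem2+/+ replicate 3 alone 17 were called. A fit of the 4 groups alone called 1, Slc46a3. Counts of 6 were given without Trem2+/+ with tau replicate 1 or 2 and without any replicate of R47H/+ cells, and 7 without R47H/+ with tau replicate 2. In Slc25a22, Slc12a9 and Slc2a9 the rise with tau was smaller in R47H/+ cells, where the level without tau was higher, and in Slc9a9 and Slc17a5 the fall was larger. The interaction was -0.67 for Slc12a9 (adjusted p = 0.0256), -0.78 for Slc2a9 (adjusted p = 0.0292), -0.78 for Slc9a9 (adjusted p = 0.00898), -0.59 for Slc17a5 (adjusted p = 0.0326) and -0.52 for Slc25a22, whose adjusted p lay at the threshold. The remaining 5 calls were Slc29a3, Slc16a7 and Slc5a6 on the negative side, and Slc39a13 and Slc15a3 on the positive side, with interactions between -1.11 and 0.64.

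**Figure D4:**
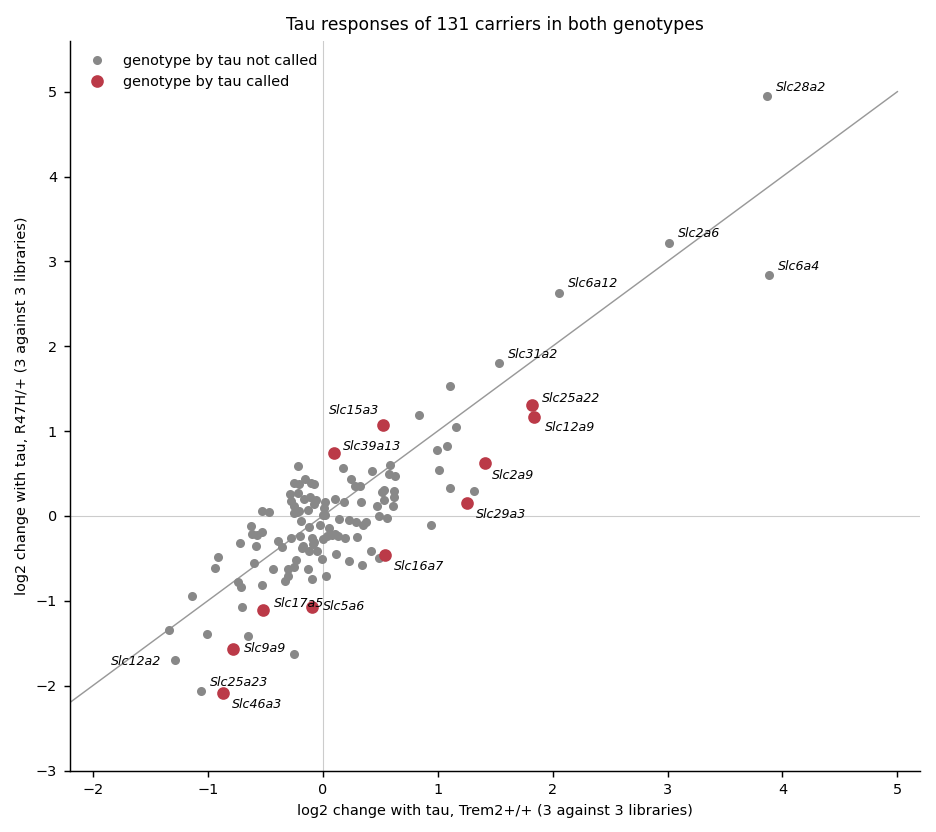
Each point is 1 of the 131 members, with the log2 change with tau in Trem2+/+ cells on the x axis and in R47H/+ cells on the y axis, 3 against 3 libraries each and none shared, and a line of equal change. The 11 red points had a called genotype by tau interaction, and Slc46a3 lies below the line at -0.86 and -2.09.

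The MK-2206 comparison asks what Akt inhibition did in R47H/+ cells. Without tau, 2 of 131 members were called, 1 higher (0.763%) and 1 lower (0.763%), against 1.19% and 1.36% of all genes. Slc29a1 rose from 57.6, 61.3 and 63.6 CPM to 89.7, 90.7 and 92.8 CPM (log2 change 0.58, SE 0.108, adjusted p = 0.00749). Slc9a9 fell from 66.9, 75.8 and 74.0 CPM to 44.4, 52.8 and 45.9 CPM (log2 change -0.60, SE 0.116, adjusted p = 0.00981). The ranges did not overlap for either gene, which was a condition for naming them. The call of Slc29a1 was lost without R47H/+ replicate 1 (adjusted p = 0.0569), and that of Slc9a9 without a count filter (0.0547), without R47H/+ replicate 2 (0.0554) and without MK-2206 replicates 1 or 3 (0.0587 and 0.0591). Without both length-shifted libraries, neither of which is in this comparison, 24 members were called, 13 higher (9.92%) and 11 lower (8.40%), against 6.82% and 7.10% of all genes. A fit of these 6 libraries alone called 30. In DESeq2 it was 6, and 21 members had an unadjusted p under 0.05. For the fit alone, DESeq2 and the unadjusted cut no share of all genes is given. These counts are therefore not a result about the members.

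With tau, MK-2206 was followed by 8 called members, 4 higher (3.05%) and 4 lower (3.05%), against 1.64% and 1.40% of all genes. Without both length-shifted libraries the count was 26, 12 higher (9.16%) and 14 lower (10.7%), against 6.28% and 5.73% of all genes. Without R47H/+ with tau replicate 2 alone, a library of this comparison, it was 4. Without replicate 3 of that group it was 3, and without any 1 of the MK-2206 with tau libraries it was 2. Slc46a3 was higher by 0.86 (SE 0.0998, adjusted p = 0.000165). Slc17a5 lay at 63.9, 68.6 and 63.8 CPM against 46.3, 38.2 and 44.3 CPM in R47H/+ cells with tau alone (log2 change 0.61, adjusted p = 0.00579). For both genes the values with MK-2206 and tau lay near those of Trem2+/+ cells with tau, 69.1, 66.1 and 62.2 CPM for Slc17a5. These 2 calls were kept under every alternative.

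The other 6 calls were lost under several alternatives, among them the fit without a count filter (adjusted p = 0.0771 to 0.305). Slc15a2 was higher by 0.87 (0.63 with an adjusted p of 0.181 without R47H/+ with tau replicate 2) and Slc29a1 by 0.42 (adjusted p = 0.119 in a fit of the 2 groups alone). Slc39a8 changed by -0.81, Slc25a25, a calcium-regulated mitochondrial carrier of ATP-magnesium, by -0.59, Slc39a13, a zinc carrier of the Golgi, by -0.50 and Slc15a3 by -0.38. In the fit of the 2 groups alone their adjusted p-values were 0.118, 0.068, 0.0581 and 0.118. Leaving out single libraries of these groups gave adjusted p-values from 0.0507 to 0.204 where a call of the 6 was lost. The MK-2206 by tau interaction called 1 member (0.763%), Slc46a3, higher, and 0 lower, against 0.181% and 0.196% of all genes, and 16, 9 more positive (6.87%) and 7 more negative (5.34%), against 2.76% and 2.19%, when the length-shifted pair was left out. In DESeq2 the count was 4, and 13 members had an unadjusted p under 0.05, both without a share of all genes to set them against.

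RefSeq start windows (250 bases before to 50 after the start, GRCm38.p6) were found by symbol for 101 of the 131 members. They were searched on both strands for GAAANNGAAA, the core of the interferon-stimulated response element, for TGATGNAA, the core of the amino acid response element, for the E-box CACGTG, which factors of the TFEB and MYC families bind, for TGACNNNGC and for the kappa B motif. A gene counted when any of its windows held a match, and matches of different motifs may overlap. The E-box was in 19.8% of the members, 11.9% of the genes tested and 8.09% of all genes with windows. It was in 2 of 16 members higher with tau in both genotypes (12.5%) and 6 of 17 lower in both (35.3%). TGACNNNGC was in 23.8% of the members and 17.2% of the genes tested, in 3 of 16 higher (18.8%) and 7 of 17 lower (41.2%). The kappa B motif was in 11.9% of the members and 12.3% of the genes tested, in 3 of 16 higher (18.8%) and 1 of 17 lower (5.88%). GAAANNGAAA was in 2.97% of the members and 4.07% of the genes tested, and TGATGNAA in 2.97% and 2.87%. These are matches of letters, not sites, and the difference between risers and fallers was not tested.

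Carriers without an Slc symbol were taken from a list of 29 genes, such as the mitochondrial uncoupling protein, pyruvate carriers and sideroflexins, of which 28 were tested. With tau, 3 were higher and 7 lower in Trem2+/+ cells, 3 and 7 in R47H/+ cells, and 4 and 9 with MK-2206. The shares of all genes tested were 14.4% higher and 12.1% lower, 15.0% and 12.6%, and 14.3% and 11.3%. The median log2 changes were -0.15, -0.17 and -0.20. Between genotypes without tau 1 was higher and 2 were lower, against 8.22% and 6.83% of all genes. Slco3a1 and Slco2b1, organic anion carriers with the smallest p-values of the list, moved in opposite directions, from means of 0.446 and 16.2 CPM to 24.6 and 0.345 CPM with tau in Trem2+/+ cells. Of the 13 genes set aside by name, 5 were higher and 5 lower between genotypes without tau, 5 higher and 3 lower with tau in Trem2+/+ cells, and 7 higher and 2 lower in R47H/+ cells. The shares of all genes in these comparisons are those just given.

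At the other end, 51 of the 131 members (38.9%) were called in none of the 7 pairwise comparisons, against 54.5% of all genes tested. With the length-shifted pair left out it was 23 (17.6%), against 31.3%. The members with the largest p over the 6 groups were Slc39a3, a zinc importer, Slc23a2, an ascorbate carrier, Slc25a39 and Slc25a40, related mitochondrial carriers that bring in glutathione, and Slc10a3. The group means of Slc39a3 lay between 41.3 and 44.7 CPM, and those of Slc10a3 between 16.8 and 18.5 CPM, with ranges that overlapped between all groups. Of the exonic bases of Slc10a3, 12.8% are shared with Ubl4a on the same strand. Slc23a2 lay at 148, 122 and 43.0 CPM in Trem2+/+ cells and at 129, 60.4 and 132 CPM in R47H/+ cells with tau, so the length-shifted library was far below its partners in both groups. Without both libraries its adjusted p over the 6 groups was 0.00425, against 0.897 with them.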

How the data were processed

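RNA was sequenced from 18 libraries of primary mouse microglia, 6 groups of 3, and the deposited table holds raw read counts per gene, 1 column per library. The submitters' processing notes name STAR, featureCounts and DESeq2 with GRCm38 and mm10, without versions or roles, and the annotation, filters and use of strand are not given in the sources used here. Gene lengths are the authors' deposited column.

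Genes were tested with edgeR 4.0.16 in R 4.3.3. TMM scaling and the filterByExpr count filter left 13267 of 54532 genes. A quasi-likelihood model with 1 term per group was fitted to all 18 libraries (12 residual degrees of freedom), and p-values were adjusted by Benjamini-Hochberg over all tested genes, with a threshold of 0.05. The standard error (SE) is the log2 change divided by the square root of F. Levels are CPM on TMM-scaled totals, whereas membership used unscaled CPM. The fit was tested on simulated data.

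Members were named if they were among the 3 of a class with the smallest p over the 6 groups, among the up to 6 largest called changes each way per pair with ranges that do not overlap (4 each way per interaction), among the 5 most abundant per length, among the 5 of largest p, or next to the level limit. For other carriers the 2 of smallest p were named. Further members were named after their values were seen. The members and lists were chosen with earlier results of these data known. Marker lists gave summed levels per library of 53.5 to 105 CPM for astrocytes, 85.0 to 187 for oligodendrocyte cells, 1.14 to 3.75 for neurons, 5.33 to 103 for fibroblasts with vessels, and 393 to 561 for border macrophages with monocytes and granulocytes. The sum for microglia is not reported here.

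Alternatives were DESeq2 1.42.0, RLE scaling, no count filter, the compared groups alone, a replicate block, leaving out each library, and leaving out both length-shifted libraries.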

Additional observations from a re-analysis of the deposited data

Results flagged for a closer look

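The tau response of 6 members differed between the genotypes with the largest called interactions in each direction, and 1 of them also differed with MK-2206 (edgeR quasi-likelihood test of the interaction, Benjamini-Hochberg adjustment). Slc46a3 had -1.23 between the genotypes and 1.06 with MK-2206, as log2 differences of the tau response, and both calls were kept under every alternative.

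Slc29a3 had an interaction of -1.11 (SE 0.259, adjusted p = 0.0185). It lay at 119, 114 and 66.6 CPM in Trem2+/+ cells and 247, 236 and 236 CPM with tau, and at 208, 223 and 205 CPM in R47H/+ cells and 267, 178 and 262 CPM with tau. Replicate 3 of the first group and replicate 2 of the last, the length-shifted libraries, are the lowest of their groups. Without both libraries the interaction was -0.72, and in the 4 groups alone the call was lost (adjusted p = 0.0920).

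Slc16a7 had an interaction of -1.01 (SE 0.236, adjusted p = 0.0187), with 29.5, 29.8 and 21.2 and 39.3, 36.0 and 42.4 CPM in Trem2+/+ cells without and with tau, and 42.2, 47.6 and 47.1 and 40.3, 25.0 and 34.2 CPM in R47H/+ cells. The call was lost in the 4 groups alone (adjusted p = 0.0757), without Trem2+/+ with tau replicate 3 (0.05002) and without R47H/+ replicate 2 (0.0517). Slc5a6, a carrier of biotin and pantothenate, had -0.98 (SE 0.241, adjusted p = 0.0250). Its values were 9.71, 11.3 and 6.34 and 9.08, 8.90 and 7.78 CPM in Trem2+/+ cells and 12.9, 11.9 and 12.6 and 6.14, 5.39 and 6.28 CPM in R47H/+ cells. That call was lost in the 4 groups alone (0.102) and without Trem2+/+ with tau replicate 1 (0.0673) or 2 (0.0635), R47H/+ replicate 1 (0.0643) or 3 (0.0587), or R47H/+ with tau replicate 2 (0.0671). Of its exonic bases, 9.92% overlap Atraid on the opposite strand.

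On the positive side, Slc39a13 had 0.64 (SE 0.143, adjusted p = 0.0132), with 33.8, 36.7 and 34.5 and 39.0, 40.7 and 32.8 CPM in Trem2+/+ cells and 27.0, 23.8 and 25.3 and 41.2, 44.4 and 41.5 CPM in R47H/+ cells. The call was lost without a count filter (adjusted p = 0.133) and in the 4 groups alone (0.0702), and 4.42% of its exonic bases overlap Psmc3 on the opposite strand. Slc15a3 had 0.55 (SE 0.130, adjusted p = 0.0198), with 346, 338 and 366 and 509, 535 and 465 CPM in Trem2+/+ cells and 446, 412 and 423 and 841, 977 and 879 CPM in R47H/+ cells. Its call was lost without a count filter (0.167), in the 4 groups alone (0.100), and without Trem2+/+ with tau replicate 3 (0.0559), R47H/+ replicate 2 (0.0620) or R47H/+ replicate 3 (0.0571).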

How the results depend on the processing

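Counts of members called moved by over 1.5 times in most comparisons. No named change reversed, but most were named for being called with ranges that do not overlap. R47H/+ against Trem2+/+ without tau (32) gave 21 without a count filter, 5 in these groups alone and 53 without both length-shifted libraries, and 21 to 39 when 1 library was left out. The genotypes with tau (22) gave 14 without a count filter, 40 without both libraries and 12 to 18 with 1 left out. Tau in Trem2+/+ cells (52) gave 25 in these groups alone and 42 to 58 with 1 left out, tau in R47H/+ cells (58) gave 46 to 56, and tau with MK-2206 (53) gave 80 in these groups alone, 81 without both libraries and 44 to 48. MK-2206 without tau (2) gave 6 in DESeq2, 30 alone, 24 without both and 1 to 2. MK-2206 with tau (8) gave 3 without a count filter, 13 in DESeq2, 2 alone, 26 without both and 2 to 6. The genotype by tau interaction (11) gave 6 without a count filter, 19 in DESeq2, 1 alone, 30 without both and 6 to 17, and the MK-2206 by tau interaction (1) gave 4 in DESeq2, 2 alone, 16 without both and 1 to 2. The difference over 6 groups (78) gave 71 to 98 with 1 left out. Fits of groups alone and fits without libraries hold fewer samples. Apart from the fit without both length-shifted libraries, no share of all genes is given for the alternatives. The cause of the other shifts was not tested.

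Of 77 changes of named members, 51 kept their call under every alternative. Over 966 alternatives, 869 kept the call, 97 kept the direction only and 0 reversed. All 77 kept it under DESeq2, RLE scaling and without both libraries.

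The replicate numbers showed no clear pairing of the samples, with correlations of same-numbered deviations between -0.143 and 0.201. Whether same-numbered libraries shared a culture is not given, so pairing is not excluded. A replicate block gave 26, 51, 55, 20, 3, 6, 53, 10, 1 and 70 calls for R47H/+ against Trem2+/+, tau in Trem2+/+, tau in R47H/+, genotypes with tau, MK-2206, MK-2206 with tau, tau with MK-2206, the genotype and the MK-2206 interaction and the 6 groups. With the block the calls of Slc15a3 (adjusted p = 0.0659) and Slc29a1 (0.0808) for MK-2206 with tau and of Slc36a1 between genotypes with tau (0.0601) were lost.

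Members near 5 CPM rest on few counts in the groups where they are low, which limits their precision.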
